A study of Mus musculus with 12 samples.

Results

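Hypoxia and hypoxia-inducible factor (HIF) pathway genes were followed in mouse retinal explants, which are whole retinas dissected free of the retinal pigment epithelium and kept alive in culture. The set comprised 10 genes of the 53707 in the deposited gene table. It was picked by symbol and not by level, but with earlier results of these data known. It held the HIF alpha subunits Hif1a, Epas1 and Hif3a and the prolyl hydroxylases Egln1 and Egln3. The non-glycolytic targets in it were Vegfa, Adm, Bnip3, Ankrd37 and Car9. All 10 passed the filter on low counts and were among the 21061 genes tested. Retinas came from wild-type C57BL/6J mice at 28 days of age and spent 48 hours in Neurobasal-A medium with 5 mM or 25 mM glucose, and otherwise the same supplements and antibiotics. Glucose was the condition varied. The study's methods name the same carbon dioxide level for both groups but no oxygen level, and oxygen in the tissue is not reported. RNA-seq covered 3 biological replicates per concentration with 2 technical replicates of each, 12 libraries in all, and the first technical replicates were labelled batch 1 and the second batch 2. The labels do not say how many retinas or animals made up a replicate, nor at which step the technical replicates were split.

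HIF is a pair of proteins, an oxygen-regulated alpha subunit and a stable beta subunit, that binds DNA at a short motif and raises transcription of genes for oxygen delivery and anaerobic metabolism. When oxygen is present, prolyl hydroxylases mark the alpha subunit for destruction, so that HIF activity is set mostly at the level of protein rather than mRNA. In the retina the pathway is known for its control of Vegfa, the vascular growth factor behind normal and pathological vessel growth. Several of its targets also encode glycolytic enzymes.

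Library totals lay between 17998905 and 36692484 estimated counts at 5 mM glucose and between 14815285 and 23129541 at 25 mM. These totals bear on counting error only. Rod photoreceptor markers summed to 2668 counts per 1000000 counts (CPM) or more in every library, while the 5 pigment epithelium markers summed to between 1.19 and 4.76 CPM. A pair of libraries stood apart. The batch 2 library of 5 mM replicate 1 held 315 CPM of 8 endothelial markers, against 897 to 2099 in the other 5 mM libraries. The batch 1 library of 25 mM replicate 2 held 58.5 CPM against 652 in its technical partner. The other 25 mM libraries spread from 100.6 to 790.1 CPM, so it stood apart from its partner more than from its group. Fold changes without these 2 libraries are given where leaving them out changed a call or moved a value most.

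The core DNA motif of HIF is read as ACGTG or GCGTG on either strand, and these letters were searched in the 250 bases before the RefSeq start of each member (GRCm38.p6). RefSeq promoters were found for 9 of the 10 members, 10 promoters in all. Of these 10, 9 held at least 1 of the 2 spellings. Vegfa had 2: the promoter at its annotated start held neither spelling, and the other, which held both, lay inside the gene. The starts used for that second promoter and for Hif1a matched no annotated transcript start. Of all 32851 RefSeq promoters of this length, 38.6% held at least 1 spelling, 16.6% with ACGTG and 28.2% with GCGTG. A match of letters is a description and does not show that HIF binds there. The promoters of Hif3a, Egln3, Adm and Bnip3 are printed because these genes had different glucose patterns and all carried the letters. Each is read 5′ to 3′ on the strand of its gene, at chr7:17062428-17062677 (minus) for Hif3a, chr12:54203875-54204124 (minus) for Egln3, chr7:110627407-110627656 (plus) for Adm and chr7:138909520-138909756 (minus) for Bnip3. Capitals mark the motif on either strand, and the bases of Bnip3 that lie inside the annotated gene were left out.
Hif3a: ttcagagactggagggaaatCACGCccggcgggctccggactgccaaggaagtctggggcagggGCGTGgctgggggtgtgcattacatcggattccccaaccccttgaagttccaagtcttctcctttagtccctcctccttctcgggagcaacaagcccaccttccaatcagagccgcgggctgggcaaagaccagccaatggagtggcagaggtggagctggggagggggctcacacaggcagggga
Egln3: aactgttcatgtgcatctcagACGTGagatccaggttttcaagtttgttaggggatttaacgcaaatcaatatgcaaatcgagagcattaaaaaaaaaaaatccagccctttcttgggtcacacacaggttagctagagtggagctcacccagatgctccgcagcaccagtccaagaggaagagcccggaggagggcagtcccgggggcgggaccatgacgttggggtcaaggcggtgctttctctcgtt
Adm: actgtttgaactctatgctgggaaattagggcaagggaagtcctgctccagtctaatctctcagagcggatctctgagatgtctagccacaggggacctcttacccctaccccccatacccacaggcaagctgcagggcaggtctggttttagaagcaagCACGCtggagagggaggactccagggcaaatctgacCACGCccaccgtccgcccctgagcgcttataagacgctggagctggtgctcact
Bnip3: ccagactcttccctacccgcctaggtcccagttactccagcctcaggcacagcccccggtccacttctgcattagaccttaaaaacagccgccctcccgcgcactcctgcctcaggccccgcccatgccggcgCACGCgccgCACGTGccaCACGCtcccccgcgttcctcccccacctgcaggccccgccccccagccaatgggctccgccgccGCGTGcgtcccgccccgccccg

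Levels of different genes were compared per length, as transcripts per 1000000 transcripts (TPM) from the transcript table. Hif1a stood far above the rest, with 502 to 814 TPM over the 6 biological replicates. Bnip3, a mitochondrial protein that promotes removal of mitochondria, followed at 131 TPM on average, then Vegfa at 92.9, Epas1 at 52.2 and Ankrd37 at 38.7. Adm averaged 23.1 TPM, Egln1 18.5 and Egln3 8.83, and the lowest levels were those of Hif3a (1.86 TPM) and Car9 (0.852 TPM). The ranges over the 6 replicates separated Hif1a from Bnip3. Egln1 and Egln3 were separated only narrowly, with a lowest value of 13.4 TPM for Egln1 and a highest of 13.3 TPM for Egln3. All other neighbours in this order had overlapping ranges, so their order is not fixed by these data.

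To ask whether glucose supply altered the pathway, 25 mM was compared with 5 mM glucose across the 3 biological replicates of each, with technical replicates summed. None of the 10 members passed a false discovery rate (FDR) of 0.05 in edgeR's quasi-likelihood test, where 1.98% of all genes tested did (417 of 21061). At an unadjusted p under 0.05 stood 5 members, namely Epas1, Egln1, Egln3 and Car9 with lower levels at 25 mM and Hif3a with a higher one. Over all genes tested, 28.7% reached that level, 15.5% lower and 13.2% higher. DESeq2 called 1 member, Epas1 (FDR = 0.0373), where it called 15.5% of all genes. The limma-voom method called 0 members, where it called 1.98% of all genes. The median log2 fold change of the members was -0.41, against -0.01 over all genes tested, and 8 of 10 were below 0, as were 50.7% of all genes. The replicates of the 2 concentrations did not overlap for 3 members, Egln1 and Egln3 being lower and Hif3a higher at 25 mM, while 31.8% of all genes showed such a separation. With 3 against 3 the smallest p an exact two-sided permutation test of 1 gene can give is 0.1.

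**Figure D1:**
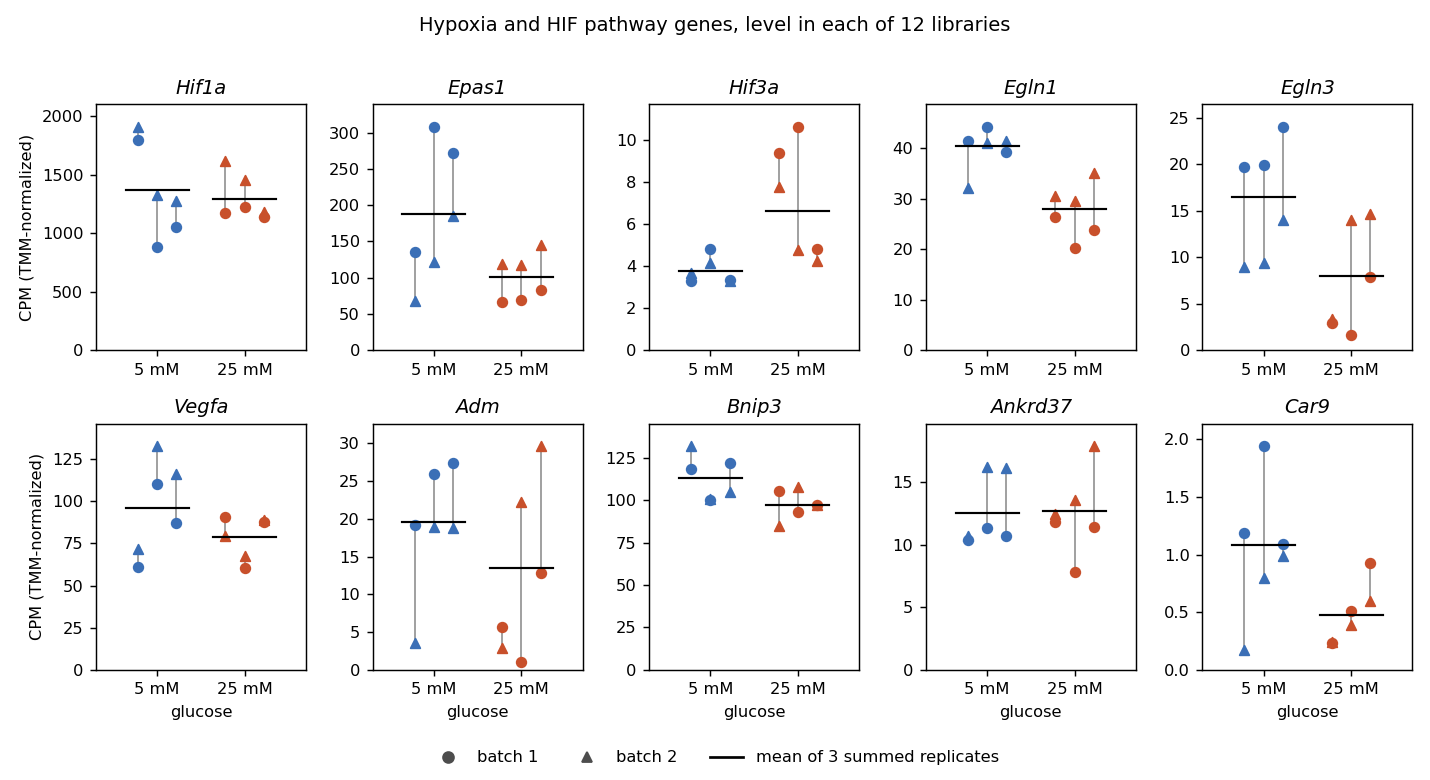
Level of each of the 10 genes (CPM scaled by TMM factors, linear axes from 0) in the 12 libraries at 5 mM (blue) and 25 mM glucose (orange). Circles are batch 1 and triangles batch 2, a grey line joins the 2 technical replicates of a biological replicate, and a black bar is the mean of the 3 summed replicates. For Egln3 and Adm, the 2 libraries of 25 mM replicate 2 lie far apart (1.60 and 14.0 CPM, 1.08 and 22.2 CPM).

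Hif1a (ENSMUSG00000021109, chromosome 12, 73901375 to 73947530, plus strand) encodes the alpha subunit that drives the acute response to low oxygen. Its 5 mM replicates held 1864, 1079.8 and 1170.4 CPM, and its 25 mM replicates 1369, 1345 and 1174 CPM. The first 5 mM replicate was the highest of the 6 and the others lay close together, so the groups overlapped. The log2 fold change was -0.08 (SE 0.25, 95% interval -0.65 to 0.49, FDR = 0.851, edgeR). Without the first 5 mM replicate it was 0.20 (FDR = 0.358, edgeR), so its direction rested on that replicate. In the annotation, exons of Hif1a overlap Gm49321 on the same strand and the antisense gene Gm15283. No source says if reads were counted by strand, so some of these reads may belong to those genes.

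Epas1 (ENSMUSG00000024140, chromosome 17, 86753700 to 86833410, plus strand) encodes HIF-2 alpha, which is known for its high level in endothelial cells. Its replicates held 108, 227 and 227 CPM at 5 mM and 90.3, 97.5 and 117 CPM at 25 mM glucose. At 5 mM, 2 replicates stood above every 25 mM replicate and the first lay among them. The log2 fold change was -0.88 (SE 0.29, 95% interval -1.54 to -0.22, FDR = 0.101, edgeR). Without the first 5 mM replicate it passed the threshold, at -1.16 (FDR = 0.0104, edgeR), in a fit that called 26.6% of all genes. Without only the batch 2 library of that replicate it was -0.96 (FDR = 0.0456, edgeR), with 8.27% of all genes called. Other omissions did not bring it past the threshold. Without the batch 1 library of 25 mM replicate 2 it was -0.78 (FDR = 0.195, edgeR), and without both libraries that stood apart -0.86 (FDR = 0.0999, edgeR). With any other replicate left out, its FDR lay between 0.108 and 0.290 (edgeR).

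Hif3a (ENSMUSG00000004328, chromosome 7, 17031507 to 17062427, minus strand) encodes another alpha subunit, some forms of which restrain the others. It held 3.50, 4.55 and 3.32 CPM at 5 mM and 8.44, 6.87 and 4.57 CPM at 25 mM glucose. All 3 replicates at 25 mM were above all 3 at 5 mM, although the lowest at 25 mM exceeded the highest at 5 mM only slightly. This gave a log2 fold change of 0.81 (SE 0.31, 95% interval 0.10 to 1.51, FDR = 0.134, edgeR). Summed from the transcript table instead of the gene table it was 0.55 (FDR = 0.172, edgeR), and the gene table held 1.06 times the summed transcript count of this gene.

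Egln1 (ENSMUSG00000031987, chromosome 8, 124908587 to 124949324, minus strand) encodes PHD2, the main oxygen sensor that hydroxylates HIF alpha. Replicates at 5 mM held 37.8, 42.9 and 40.5 CPM, and those at 25 mM held 27.9, 25.7 and 30.2 CPM. Both groups were tight and did not overlap, with means of 40.4 ± 2.54 and 27.9 ± 2.27 CPM (SD, n = 3 each). Its log2 fold change was -0.53 (SE 0.17, 95% interval -0.92 to -0.15, FDR = 0.0950, edgeR). With the 12 libraries as separate samples and a batch term it was -0.53 (FDR = 0.0379, edgeR), in a fit that treats technical replicates as independent and called 15.6% of all genes. Without the first 5 mM replicate it was -0.58 (FDR = 0.0369, edgeR), in the fit that called 26.6% of all genes. With any other replicate left out, its FDR lay between 0.112 and 0.313 (edgeR). Without the batch 1 library of 25 mM replicate 2 it was -0.45 (FDR = 0.196, edgeR), and without both libraries that stood apart -0.51 (FDR = 0.142, edgeR).

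Egln3 (ENSMUSG00000035105, chromosome 12, 54178981 to 54203860, minus strand) encodes PHD3, a prolyl hydroxylase whose gene is itself a HIF target. It held 15.4, 15.3 and 18.9 CPM at 5 mM and 3.08, 9.17 and 11.7 CPM at 25 mM glucose. The groups did not overlap, but the 25 mM replicates were spread over a wider range than the 5 mM ones. From these values the log2 fold change was -1.05 (SE 0.44, 95% interval -2.05 to -0.05, FDR = 0.159, edgeR). Without the batch 1 library of 25 mM replicate 2 it was -0.78 (FDR = 0.374, edgeR), and without both libraries that stood apart -0.91 (FDR = 0.296, edgeR). Without 25 mM replicate 1, the lowest of the 6, it was -0.65 (FDR = 0.244, edgeR).

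Among the targets, Vegfa (ENSMUSG00000023951, chromosome 17, 46016993 to 46032369, minus strand) held 66.1, 120.3 and 103 CPM at 5 mM and 83.6, 64.0 and 89.3 CPM at 25 mM glucose. The groups overlapped, with a log2 fold change of -0.29 (SE 0.24, 95% interval -0.85 to 0.28, FDR = 0.455, edgeR). Technical replicates of Vegfa differed by at most 1.33 times. Its spread lay between biological replicates. Adm (ENSMUSG00000030790, chromosome 7, 110627661 to 110629820, plus strand), which encodes the vessel-dilating peptide adrenomedullin, held 12.8, 22.9 and 23.0 CPM at 5 mM and 4.27, 14.0 and 22.0 CPM at 25 mM glucose. Its groups overlapped as well, at a log2 fold change of -0.54 (SE 0.52, FDR = 0.506, edgeR). Technical replicates of Adm differed by up to 20.5 times, the widest gap of the set. Without the batch 1 library of 25 mM replicate 2 the log2 fold change of Adm was -0.26 (FDR = 0.799, edgeR), and without both libraries that stood apart -0.43 (FDR = 0.653, edgeR). Leaving out 1 replicate at a time took it from -0.11 (without 25 mM replicate 1) to -1.10 (without 25 mM replicate 3).

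Bnip3 (ENSMUSG00000078566, chromosome 7, 138890836 to 138909519, minus strand) held 125, 100.4 and 114 CPM at 5 mM and 93.4, 101 and 98.2 CPM at 25 mM glucose. These values lay close together and overlapped, with a log2 fold change of -0.21 (SE 0.15, 95% interval -0.57 to 0.14, FDR = 0.374, edgeR). With RLE factors or library totals as the scale, its replicates no longer overlapped and were lower at 25 mM. With TMM factors the overlap was slight, 101 CPM at 25 mM against 100.4 CPM at 5 mM. Ankrd37 (ENSMUSG00000050914, chromosome 8, 45996902 to 46005707, minus strand), an ankyrin-repeat gene induced by HIF in many cells, held 10.6, 13.5 and 13.6 CPM at 5 mM and 11.9, 11.2 and 15.0 CPM at 25 mM glucose. Its log2 fold change was 0.02 (SE 0.23, 95% interval -0.51 to 0.54, FDR = 0.967, edgeR). Its exons overlap Lrp2bp and Ufsp2 on the opposite strand. Car9 (ENSMUSG00000028463, chromosome 4, 43506966 to 43513729, plus strand), a membrane carbonic anhydrase often used as a marker of hypoxic tissue, was near the floor of the data, with 10 to 64 estimated counts in a replicate. It held 0.76, 1.45 and 1.04 CPM at 5 mM and 0.23, 0.44 and 0.77 CPM at 25 mM glucose, with groups that just overlapped. Its log2 fold change was -1.16 (SE 0.48, 95% interval -2.26 to -0.07, FDR = 0.156, edgeR).

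The 2 batches were then compared, each holding 1 library of every biological replicate. In batch 1 alone, Epas1, Egln1 and Egln3 fell at 25 mM glucose (3 of 10 members called, 17.3% of all genes and 10.1% of all genes in that direction). In batch 2 alone 0 members and 0 genes were called by edgeR. Libraries did not overlap in batch 1 for Epas1, Egln1, Egln3, Adm and Car9, all lower at 25 mM, where 20.3% of all genes were lower without overlap. In batch 2 the only such member was Hif3a, higher at 25 mM (8.22% of all genes). Without the batch 2 library of 5 mM replicate 1, the replicates did not overlap for Epas1, Egln1, Egln3 and Car9, lower at 25 mM (17.1% of all genes), and for Hif3a, higher (17.2%). Without both libraries that stood apart, the same 5 members did not overlap (14.4% of all genes lower, 14.6% higher), and edgeR called 0 members and 0.0096% of all genes.

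For Epas1, batch 1 libraries held 135, 308 and 272 CPM at 5 mM against 66.1, 69.4 and 83.0 CPM at 25 mM glucose. The batch 2 libraries of the same replicates held 67.9, 121 and 185 CPM against 119, 117 and 145 CPM. Levels at 5 mM were thus lower in batch 2 for all 3 replicates and levels at 25 mM higher for all 3. Its log2 fold change was -1.72 in batch 1 (SE 0.31, FDR = 0.0118, edgeR) and 0.04 in batch 2 (SE 0.33, FDR = 0.961, edgeR). The difference between the batches was 1.76 (SE 0.24, unadjusted p = 9.97e-05, FDR = 0.121 over all genes, edgeR with replicates as blocks). No gene passed an FDR of 0.05 for such a difference, and 16.3% of genes had an unadjusted p under 0.05.

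Egln3 libraries in batch 1 held 19.7, 19.9 and 24.0 CPM at 5 mM against 2.96, 1.60 and 7.93 CPM at 25 mM glucose. In batch 2 they held 8.99, 9.35 and 14.0 CPM against 3.36, 14.0 and 14.7 CPM. The separation of batch 1 was absent in batch 2, where the log2 fold change was 0.01 (FDR = 0.995, edgeR) after -2.34 in batch 1 (FDR = 0.0213, edgeR). The difference was 2.30 (SE 0.67, unadjusted p = 0.00893, FDR = 0.212, edgeR).

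Egln1 held 41.4, 44.2 and 39.3 CPM in batch 1 at 5 mM against 26.4, 20.3 and 23.8 CPM at 25 mM glucose, and 32.1, 41.0 and 41.5 CPM against 30.6, 29.6 and 35.2 CPM in batch 2. Its log2 fold change kept its sign, at -0.83 in batch 1 (FDR = 0.0337, edgeR) and -0.26 in batch 2 (FDR = 0.587, edgeR), as did that of Hif3a at 1.11 and 0.60. Adm moved from -1.88 in batch 1 to 0.44 in batch 2, neither past the threshold (FDR = 0.0827 and 0.819, edgeR). Car9 was at -1.33 and -0.61 and Vegfa at -0.12 and -0.43 in the 2 batches, none past the threshold. Hif1a, Bnip3 and Ankrd37 gave log2 fold changes between -0.21 and 0.04 in both batches.

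**Figure D2:**
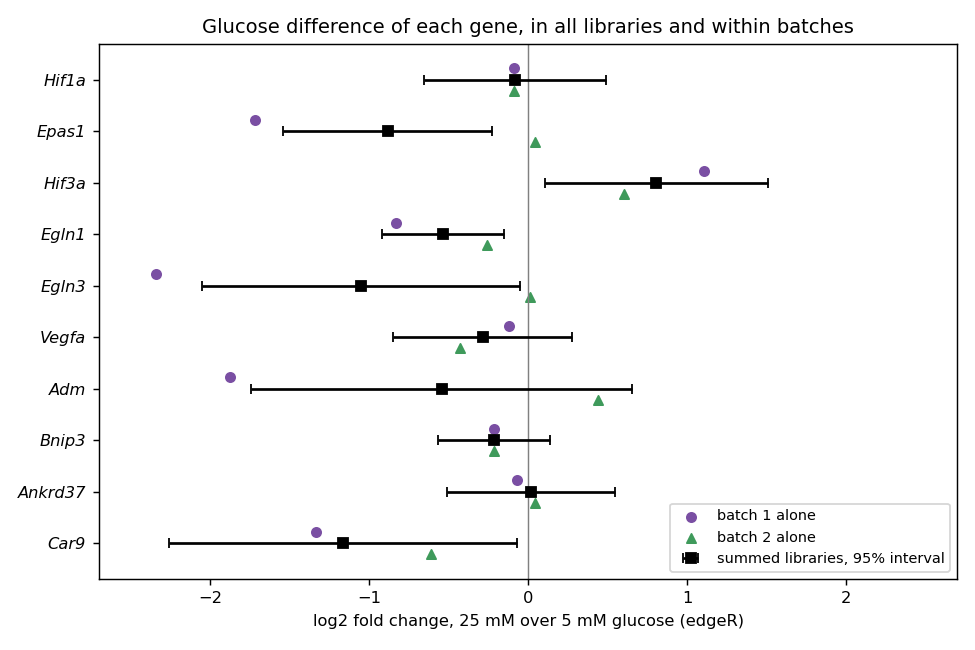
Log2 fold change of each gene, 25 mM over 5 mM glucose, from edgeR. Black squares with 95% intervals are the summed libraries, purple circles batch 1 alone and green triangles batch 2 alone; Epas1 reads -1.72 and 0.04 and Egln3 -2.34 and 0.01 in the 2 batches, while both symbols of Bnip3 lie at -0.21.

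Markers of other cells moved with the same contrast. All 8 endothelial markers were lower at 25 mM, 8 of 8 with an unadjusted p under 0.05 and 0 called, and their median log2 fold change was -2.06. Their summed level ranged from 315 to 2099 CPM in the 5 mM libraries and from 58.5 to 790.1 CPM in the 25 mM libraries, and no marker was at 0 throughout. Within batches the median was -3.10 in batch 1 and -0.88 in batch 2, so the batch in which Epas1 and Egln3 differed was also the one with the wider endothelial gap. That was not particular to endothelial markers. Medians in batch 1 and batch 2 were -2.45 and -0.89 for pericyte, -1.33 and -0.46 for microglial and -1.11 and -0.45 for astrocyte markers. Library by library, the batch 1 library of 25 mM replicate 2, lowest of all in endothelial markers, was also lowest of all in Egln1, Egln3, Vegfa, Adm and Ankrd37. It was lowest of all in Mueller glia markers too (1524 CPM). The batch 2 library of 5 mM replicate 1, lowest of the 5 mM libraries in endothelial markers, was lowest of that group in Epas1, Egln1, Egln3, Adm and Car9. It was also the highest of all 12 in Hif1a (1911 CPM) and Bnip3 (132 CPM). Epas1 did not follow the markers throughout: at 25 mM, replicate 1 held 162 CPM of endothelial markers in batch 1 and 100.6 in batch 2, while Epas1 held 66.1 and 119 CPM.

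The median over pericyte markers was -1.60 on the same scale (5 of 6 below 0), over microglial markers -0.87 (6 of 6), over astrocyte markers -0.72 (5 of 5) and over Mueller glia markers -0.19 (5 of 8). Rod markers went the other way, with 8 of 8 above 0, 4 called and a median of 1.09, and their gap was alike in batch 1 (1.11) and batch 2 (1.22). The part of these cell markers in the results for Epas1, Egln3, Adm and Car9 was not tested. In bulk samples, fewer cells of a type and less RNA per cell cannot be told apart. Pigment epithelium and erythrocyte markers were near 0, the latter summing to at most 1.24 CPM in a library.

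**Figure D3:**
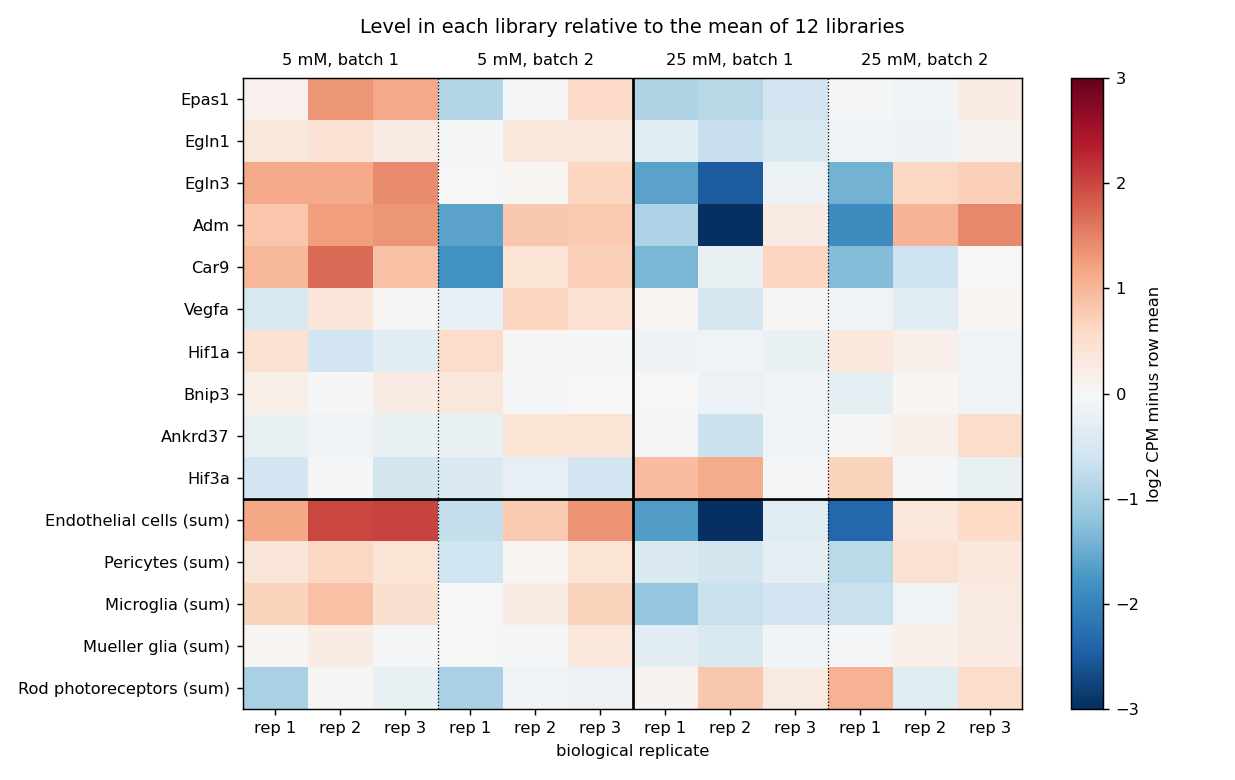
Heat map of log2 CPM minus the mean of 12 libraries (colour scale from -3, blue, to 3, red), for the 10 genes above the line and the summed markers of 5 cell types below it. Columns are the biological replicates in each concentration and batch. The darkest blue endothelial cell, 58.5 CPM, is the same library that is lowest for Egln1, Egln3, Vegfa, Adm, Ankrd37 and the Mueller glia sum.

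Among all 21061 genes tested, those most like each member over the 12 libraries were sought by Pearson's r of log2 CPM. Members with a mean of at least 1 CPM were included. The 12 libraries share 6 biological samples, so r is given as a description. Egln3 was most like Emc3 (r = 0.996), Cd93 (0.993) and Msn (0.989), of which Cd93 is a receptor of endothelial cells. Adm was most like Fosl1 (r = 0.987), Foxf1 (0.977) and Procr (0.976), and Egln1 was most like Ptpn11 (0.978), Rilpl1 (0.973) and Zcchc24 (0.963). Epas1 was nearest to Lima1 (r = 0.966), Cyfip1 (0.963) and Lsm2 (0.959), Vegfa to Ddx39b (0.986), Grhpr (0.983) and Slc27a1 (0.982), and Hif3a to Gm49151 (0.948), Gm48239 (0.946) and Carmil1 (0.946). For Hif1a the nearest were Fbxo3 (r = 0.931), Rnf152 (0.916) and Ppm1e (0.907). For Bnip3 they were Ywhah (r = 0.929), Psmb7 (0.891) and Hsd17b12 (0.890), and for Ankrd37 H2-Q7 (0.904), Snord83b (0.859) and Btbd9 (0.845). Car9 averaged under 1 CPM and was left out. None of these nearest genes was another member.

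Transcripts showed which forms carried these counts. Of the 17 transcripts of the members that held at least 10% of their gene, 16 were tested and 0 were called by edgeR, as were 0 of all 64990 transcripts tested (16.4% had an unadjusted p under 0.05). Unadjusted p was under 0.05 for 2 of them, Epas1-201 and Egln1-201, and DESeq2 called 1, Egln1-201, where it called 5.94% of all transcripts. Egln1 and Egln3 each had a single transcript in the annotation, and Epas1-201, Adm-201 and Hif3a-202 held between 97.3% and 100% of the counts of their genes in each replicate.

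Hif1a was split between the coding transcripts Hif1a-201, with 62.8% ± 2.49 of its counts at 5 mM and 65.6% ± 1.85 at 25 mM (SD, n = 3 each), and Hif1a-202, with 35.8% ± 2.29 and 32.6% ± 1.71. The shares overlapped between concentrations. Vegfa-202 held 57.3% to 73.7% of Vegfa at 5 mM and 60.0% to 73.1% at 25 mM, and 5 retained-intron transcripts together held 16.0% to 21.1% and 17.3% to 20.6%. Ankrd37 stood out in that most of its counts were assigned to 3 retained-intron transcripts, 60.9% to 76.6% at 5 mM and 63.8% to 76.6% at 25 mM glucose. Its coding transcript Ankrd37-201 held 22.7% ± 2.74 and 23.1% ± 3.96. By these estimates, the CPM of Ankrd37 given above came mostly from forms other than the coding one. The transcripts of Car9 held 0 to 46 counts in a replicate, too few to compare shares.

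**Figure D4:**
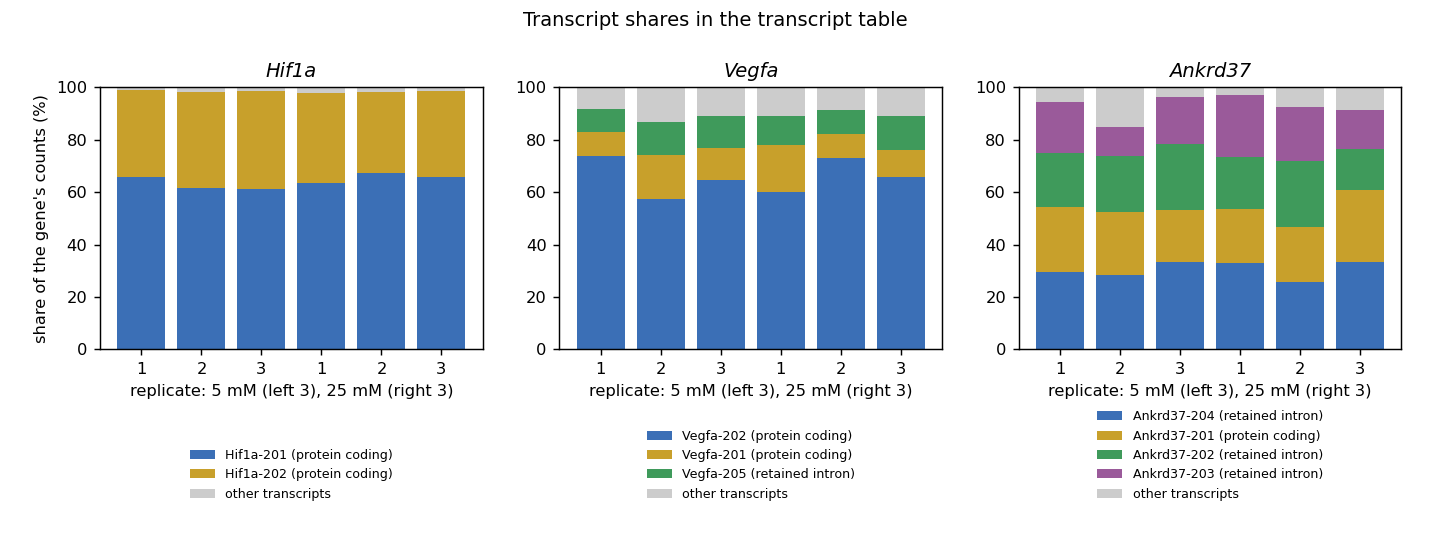
Share of the estimated counts of Hif1a, Vegfa and Ankrd37 (percent, stacked to 100) that the transcript table gave to each named transcript, in the 3 replicates at 5 mM (left) and the 3 at 25 mM glucose (right) of each panel. Hif1a-201 holds 61.1% to 67.3%, and retained-intron forms of Ankrd37 make up most of its bars at both concentrations.

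The rest of the pathway was described by a list of 82 further genes, of which 81 were tested and Epo, the erythropoietin gene, was not. Only Nrp1 was called (1 of 81, lower at 25 mM), 25 genes were lower and 2 higher at an unadjusted p under 0.05, and 62 of 81 had a log2 fold change below 0. Of all genes tested, 1.98% were called, 15.5% were lower and 13.2% higher at that level, and 50.7% were below 0, so the 1 call is no more than the general rate. The median was -0.39, against -0.01 over all genes. DESeq2 called 20 of the list, 19 of them lower, where it called 15.5% of all genes. Without the first 5 mM replicate edgeR called 34, of which 31 were lower, in the fit that called 26.6% of all genes.

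Over the 15 subunits and partners of HIF the median was 0.03 on the log2 scale, with 3 of 15 at an unadjusted p under 0.05, all lower. Arnt is a beta subunit that pairs with every alpha subunit. It held 129, 106 and 114 CPM at 5 mM and 153, 139 and 130.5 CPM at 25 mM glucose, a small gap without overlap (0.27, SE 0.16, FDR = 0.275, edgeR). Arnt2, another beta subunit, went the other way without overlap (-0.58, SE 0.16, FDR = 0.0776, edgeR). It held 40.3, 42.6 and 38.8 CPM at 5 mM and 25.2, 28.4 and 27.8 CPM at 25 mM glucose. Egln2, another prolyl hydroxylase, was also lower without overlap (-0.63, SE 0.23, FDR = 0.130, edgeR). The chaperone Hsp90aa1 gave 0.23 (FDR = 0.658, edgeR). Os9, which takes part in disposal of misfolded proteins and binds HIF-1 alpha, gave -0.82 (SE 0.32, FDR = 0.142, edgeR), and Elob, a subunit of the VHL ubiquitin ligase, gave -0.75 (SE 0.40, FDR = 0.247, edgeR). Exons of Elob overlap Srrm2 on the opposite strand.

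The list of further targets named non-glycolytic also held the glycolysis regulators Pfkfb3 and Pfkfb4, as well as Pdk1 and Slc16a3. Of its 38 genes tested, 30 had a log2 fold change below 0 (median -0.32). The lowest was Nos2, inducible nitric oxide synthase, with 5.24, 13.7 and 20.3 CPM at 5 mM and 0.70, 1.61 and 2.78 CPM at 25 mM (-2.94, SE 0.62, FDR = 0.0536, edgeR). Lox, an enzyme that crosslinks collagen, followed at -1.96 (SE 0.49, FDR = 0.0685, edgeR). At the other end, Vldlr, a lipoprotein receptor that limits vessel growth in the outer retina, held 138, 89.5 and 94.7 CPM at 5 mM and 227, 195 and 161 CPM at 25 mM (0.86, SE 0.22, FDR = 0.0705, edgeR). Sap30 was at 0.51 (FDR = 0.237, edgeR). All 4 stood short of the threshold in edgeR, although Nos2, Lox and Vldlr did not overlap between concentrations. DESeq2, which called 15.5% of all genes, called these 3 (FDR = 3.41e-06, 0.000982 and 0.0199). Nos2 was at -4.38 in batch 1 and -1.25 in batch 2, Lox at -3.14 and -0.78, and Vldlr at 1.06 and 0.73. In batch 1 all 3 were called by edgeR and in batch 2 none was.

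For the 17 glycolytic targets the median was -0.60, and 14 were below 0 and 0 called. Pkm, pyruvate kinase of muscle type, held 424, 1068 and 906 CPM at 5 mM and 384, 308 and 472 CPM at 25 mM glucose (-1.04, SE 0.34, FDR = 0.102, edgeR), and Aldoa, aldolase A, gave -0.87 (SE 0.39, FDR = 0.180, edgeR). In both genes the first 5 mM replicate stood with the 25 mM group. That did not hold for the whole list, where 5 of 17 were lower and 2 higher without overlap (15.8% and 16% of all genes). Among the 5, Pgam1 held 348, 406 and 397 CPM at 5 mM and 208, 229 and 270 CPM at 25 mM (-0.70, SE 0.17, FDR = 0.0671, edgeR). The median of the 17 was -0.37 in batch 1 and -0.40 in batch 2. The hexokinases lay on the other side of 0, Hk1 0.53 (SE 0.29, FDR = 0.255, edgeR) and Hk2 0.48 (SE 0.15, FDR = 0.0954, edgeR). Hk2 held 52.5, 47.4 and 54.1 CPM at 5 mM and 69.7, 69.0 and 76.4 CPM at 25 mM glucose, a tight pattern without overlap, but batch 1 alone gave 0.15 and batch 2 alone 0.89 (FDR = 0.636 and 0.391, edgeR). Exons of Hk1 overlap the antisense gene Hk1os and those of Aldoa overlap Fam57b.

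All 11 vascular receptors and ligands had a log2 fold change below 0 (median -0.92), although that of Kdr turned to 0.02 with library totals as the scale. Nrp1, a co-receptor of VEGF, held 40.9, 58.9 and 54.5 CPM at 5 mM and 11.9, 18.6 and 24.2 CPM at 25 mM glucose and fell by 1.49 on the log2 scale (SE 0.28, FDR = 0.0456, edgeR). With library totals its FDR was 0.0519, without 5 mM replicate 2 or 3 or 25 mM replicate 1 or 2 it lay between 0.129 and 0.177, and in batch 2 alone its log2 fold change was -0.58 (FDR = 0.505, edgeR). Angpt2, a ligand that loosens vessels and is made mainly by endothelial cells, held 60.6, 124 and 124 CPM against 6.26, 29.4 and 35.7 CPM (-2.11, SE 0.58, FDR = 0.0750, edgeR). Ramp2, the partner that makes Calcrl an adrenomedullin receptor, gave -1.68 (SE 0.45, FDR = 0.0736, edgeR), and Ramp3 gave -0.34 (FDR = 0.679, edgeR). DESeq2 called Angpt2 and Ramp2 (FDR = 0.00112 and 0.00243), and in batch 2 alone they were at -1.10 and -0.77, not called by edgeR. Kdr, the main VEGF receptor, was at -0.03 (SE 0.17, 95% interval -0.42 to 0.36), with 186 to 242 CPM at 5 mM and 198 to 231 CPM at 25 mM. That value sums opposite ones of the batches, -0.45 in batch 1 (FDR = 0.288, edgeR) and 0.46 in batch 2 (FDR = 0.509, edgeR). The vascular list moved with the endothelial markers: its median was -1.71 in batch 1 and -0.24 in batch 2.

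**Figure D5:**
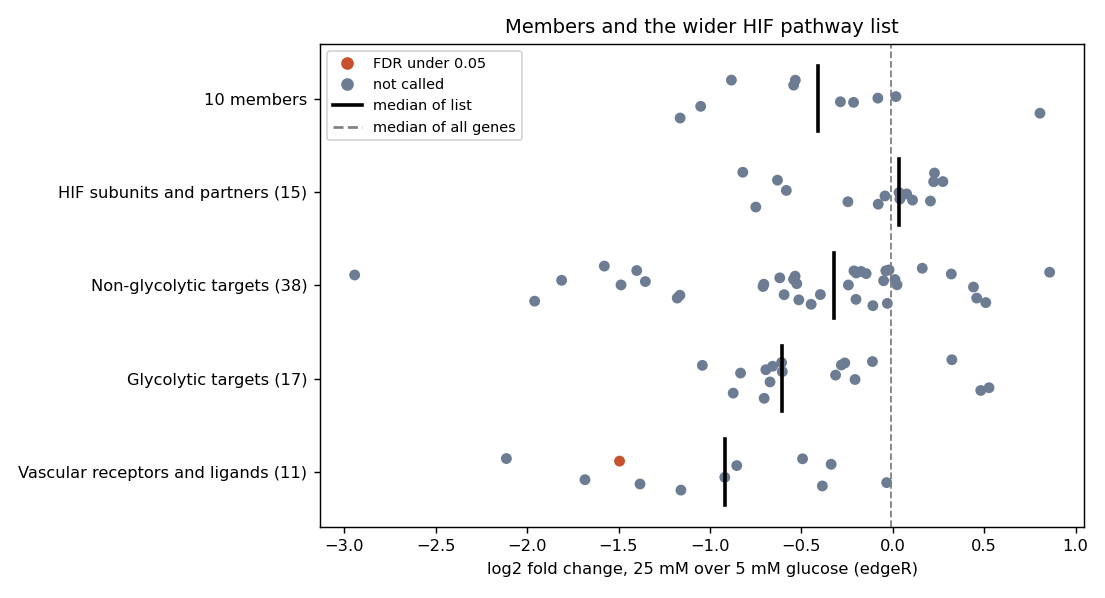
Log2 fold change (25 mM over 5 mM glucose, edgeR) of the 10 members and of the 81 tested genes of the wider list, 1 point per gene with vertical scatter for legibility. Thick black bars are medians (-0.41 for the members, 0.03, -0.32, -0.60 and -0.92 for the sublists from top to bottom), the dashed line is the median of all genes, and the orange point is Nrp1.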

How the data were processed

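RNA-seq libraries were made with a stranded total RNA kit and read as pairs. The authors deposited estimated counts (expected counts) per gene and per transcript, not normalized between libraries. The counting tool is not given in the sources used here, and the build named in the submitters' processing notes is GRCm38. Of nonzero gene values 100% were not whole. Of the genes above 100 counts in both tables, 63.6% lay within 1% of their transcript sum. Symbols came from GENCODE M21 and matched 48766 of 53707 identifiers (90.8%). Technical replicates were summed, the sums rounded, and genes filtered with filterByExpr, scaled by TMM and tested with the quasi-likelihood test of edgeR 4.0.16 (R 4.3.3), two-sided and with no block for the replicate number, adjusting p over 21061 genes by Benjamini-Hochberg. The study's methods name a quasi-likelihood model. SE is the log2 fold change divided by the square root of F. CPM uses TMM factors, log2 CPM a prior count of 2, and TPM is from transcript counts and annotated lengths. Totals limit counting error only, since amplified reads without molecular identifiers are not independent molecules, and p-values measure the spread between these replicates.

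The members and lists were chosen with earlier results of these data known. Named genes were the members, transcripts with at least 10% of a member's counts, the 3 genes most like each member except Car9, and from each sublist of the wider list those called plus the 2 highest and the 2 lowest log2 fold changes. Arnt2, Egln2 and Pgam1 lie outside this rule and were named after seeing the data. Alternatives covered RLE factors, library totals, other filters, DESeq2 1.42.0, limma-voom (limma 3.58.1), the newer edgeR method, 12 libraries with a batch term, each batch alone, a replicate block, transcript sums and each replicate left out. Leaving out 2 libraries that stood apart, and the batch by glucose term, were added after seeing the data. Python 3.11.15, pandas 2.3.3, scipy 1.17.1 and matplotlib 3.10.9 made tables and plots.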

Additional observations from a re-analysis of the deposited data

Results flagged for a closer look

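Dixon's test was applied to the 6 libraries of each member at each concentration, 20 groups in all. Chance would flag about 1 if libraries and members were independent. They are not, since technical replicates share a biological replicate and some members are correlated. The test flagged 1: in the batch 2 library of 5 mM replicate 1, Adm was at 3.58 CPM, against 18.8 to 27.4 CPM in the other 5 libraries at 5 mM. The same library was low in endothelial markers (315 CPM).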

How the results depend on the processing

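Of the 10 members, called counts moved from 0 to 1 with DESeq2 (Epas1), 2 with 12 libraries and a batch term (Egln1 and Hif3a), 3 in batch 1 alone, 1 without the second library of 5 mM replicate 1 (Epas1) and 0 to 2 with each replicate left out, the 2 arising without 5 mM replicate 1. Counts of members without overlap moved from 3 (31.8% of all genes) to 5 in batch 1 and 1 in batch 2. They moved to 5 without that library or without both libraries that stood apart. The count was 4 with RLE factors and with library totals, where Bnip3 joined as lower. The share of all genes without overlap is not given for these 2 scales, so the 4 cannot be set beside it. Signs turned for Hif1a (0.20 without 5 mM replicate 1, range over replicates -0.24 to 0.20). In batch 2 they turned for Epas1 (0.043), Egln3 (0.0099) and Adm (0.44). Ankrd37 turned to -0.0072 with DESeq2, -0.0019 with 12 libraries, -0.068 in batch 1 and lay between -0.12 and 0.11 with a replicate left out. Kdr turned to 0.018 with library totals, 0.020 with 12 libraries and 0.46 in batch 2, and lay between -0.14 and 0.030 with a replicate left out. Calls in the wider list moved from 1 to 0 with library totals (2.18% of all genes called), transcript sums (1.67%) and in batch 2 (0%). They were also 0 without the first library of 25 mM replicate 2 (0%) and without both libraries that stood apart (0.0096%). Calls were 0 too at an FDR under 0.01 with a fold change over 2 (0 of 21061 genes). They were 15 without a filter (5.63% of all genes), 20 with DESeq2 (15.5%), 2 with the newer edgeR method (2.83%), 12 with 12 libraries (15.6%), 18 in batch 1 (17.3%) and 9 without the second library of 5 mM replicate 1 (8.27%). With each replicate left out they ranged from 0 (0%) to 34 (26.6%), the 34 without 5 mM replicate 1. DESeq2 called 1 transcript. Same-numbered replicates correlated at -0.01, -0.45 and 0.28, so the numbers were not taken as pairs; a replicate block called 0 members, 11 of the wider list (4.7% of all genes) and 0 transcripts. The cause of these moves was not tested.

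With 3 replicates per concentration the intervals of Adm, Egln3 and Car9 were wide, and Car9 had only 10 to 64 counts in a replicate. A p that misses the threshold does not show that levels were equal.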
